A study of Homo sapiens with 6 samples.

Results

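The genes that copy DNA were followed in total RNA-seq of SEM cells, a human B-cell precursor leukemia line, that expressed CTCF with or without its RNA-binding region (RBR). The set held 47 genes, matched by symbol among the 57820 genes of the deposited tables: the origin recognition complex, the licensing factors, the MCM2-7 helicase and its activators, the replicative polymerases, the sliding clamp and its loader, the enzymes that finish the lagging strand, the single-strand binding protein RPA, the fork protection complex and the enzymes that supply nucleotides. All 47 were among the 14044 genes with enough reads to be tested. In both groups the endogenous CTCF carried a miniAID-mClover3 tag, and the study's methods state that the cells also expressed OsTIR1(F74G), with which the auxin analog 5-Ph-IAA removes the tagged protein. Cells were given the analog for 6 h, then doxycycline together with the analog for 18 h (24 h of analog in all), which switched on an HA-tagged transgene from a doxycycline-inducible promoter. The transgene was wild-type CTCF in the 3 CTCF-WT libraries and CTCF lacking the RBR in the 3 CTCF-dRBR libraries. Per the methods each transgene was transduced into a line of its own, so the RBR and the line cannot be told apart. The labels name the transgene, TRE3G-HA-CTCF-dRBR, for the CTCF-dRBR libraries alone, so the one in CTCF-WT is taken from the methods. All libraries came from derivatives of 1 cell line, no source says that the replicates were separate cultures, and p-values then measure the spread between these samples, which may be technical.

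DNA replication is prepared in G1, when the origin recognition complex, CDC6 and CDT1 load double rings of MCM2-7 onto DNA, a step called licensing that geminin (*GMNN*) blocks after S phase begins. At the G1/S transition CDC45 and the GINS complex join MCM2-7 to form the active helicase, and DNA polymerase alpha with its primase starts each new strand for polymerases delta and epsilon to extend. The clamp PCNA, loaded by the RFC complex, holds the polymerases on DNA, and FEN1 and LIG1 join the lagging-strand fragments. RPA coats the exposed single strands, while TIMELESS, TIPIN and CLSPN steady the fork, and ribonucleotide reductase and thymidylate synthase make its nucleotides. Many of these genes are transcribed in bursts before and during S phase through E2F transcription factors. In a bulk sample, fewer cells in S phase and less RNA per cell cannot be told apart.

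The libraries differed in ways that touched these genes. Total expected counts (the number of reads that RSEM assigned to the genes, which need not be whole) ranged from 51732177 to 53166735 in CTCF-WT and from 30034505 to 50457168 in CTCF-dRBR, with the lowest in CTCF-dRBR replicate 1. That library also stood apart on the first principal component, which held 73.5% of the variance and placed it at 102 and the other 5 between -52.8 and 19.5. The replication genes took between 0.594% and 0.720% of the counts of a library, and a single member had between 349 and 42937 expected counts in a library. *CTCF* reads came from the tagged gene and the transgene together and had a log2 fold change of 0.24 (SE 0.10, adjusted p = 0.202). All 8 B-lineage markers checked were detected at 1 CPM or more, at a summed 884 to 1069 CPM in CTCF-WT and 613 to 1027 CPM in CTCF-dRBR. Their values did not go one way. *RAG1*, which recombines antigen receptor genes, was at 1.63, 1.71 and 1.79 CPM in the CTCF-WT libraries and 4.25, 5.87 and 4.33 CPM in the CTCF-dRBR libraries, with a log2 fold change of 1.48 (SE 0.20, adjusted p = 0.0959) and an adjusted p of 0.0312 without CTCF-dRBR replicate 1, while *PAX5* was at -0.60 (SE 0.23, adjusted p = 0.184). With the GC trend removed *RAG1*, *CD79B* and *CD22* passed the adjusted threshold as higher (1.26, 0.66 and 0.50), and the part of these markers in the results below was not tested. None of the 6 T-lineage and none of the 5 erythroid markers reached 1 CPM in a library, and *MPO*, *ELANE* and *CD14* of the 6 myeloid markers did not either. The other 3 myeloid markers were detected at low levels in both groups, *LYZ* at 5.35 to 6.58 CPM, *CSF1R* at 1.77 to 6.81 CPM and *CD33* at 4.19 to 4.96 CPM. Of the 6 epithelial and stromal markers only *VIM*, which leukemia cells can also express, reached 1 CPM, at 660 to 710 CPM in CTCF-WT and 907 to 949 CPM in CTCF-dRBR, and its part in the results below was not tested. Values are given below for replicates 1, 2 and 3 in that order, in CPM (a gene's counts scaled to library size, with TMM normalization between libraries). A log2 fold change is CTCF-dRBR over CTCF-WT, SE is its standard error, and an adjusted p is from limma-voom with Benjamini-Hochberg adjustment over all genes tested unless another tool is named.

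Genes of different base composition were shifted in opposite directions between libraries. How far each gene lay from its 6-library mean in log2 CPM correlated with the GC content of a gene's exons at a Spearman's rho between 0.339 and 0.709 in CTCF-WT, and at -0.78, -0.417 and 0.504 in CTCF-dRBR replicates 1, 2 and 3. The GC trend therefore ran partly along the groups, and its part in the fold changes was not tested. Beside the fit on the counts as deposited, each value is given where needed after the trend was subtracted from every library (written below as with the GC trend removed), and without CTCF-dRBR replicate 1.

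The promoters were searched for what the genes share besides their role. RefSeq promoters (250 bases before to 50 bases after the start site, table of build GRCh38.p14) were found for 41 of the 47 genes, and each printed stretch was matched to 1 place in GRCh37, whose coordinates are given. A consensus E2F site (any of TTTCCCGC, TTTGGCGC, TTTCGCGC or TTTGCCGC on either strand, where words may overlap each other) stood in 21 of the 41 (51.2%), against 6.90% of the 9016 tested genes in the table and 3.99% of all 27305 symbols. The CCAAT box, the site of NF-Y, stood in 26 (63.4%), against 44.2% and 39.7%. The CHR element of mitotic genes (TTTGAA) stood in 1, *RRM1* (2.44%, against 14.1% and 18.2%), and the CTCF core motif in none (0.0998% and 0.0696% of the others). These are matches of letters on both strands in a short window, and a window without one says nothing of the factor. The first stretches below carry E2F sites in capitals, and show how *MCM6* has a pair of blocks, each of 2 overlapping E2F words that face each other, where *PCNA*, *TYMS* and *POLA1* have 1 word.

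The E2F stretches read 5′ to 3′ along the gene's strand, upstream of the RefSeq start.
MCM6, chr2:136634084-136634173, minus strand: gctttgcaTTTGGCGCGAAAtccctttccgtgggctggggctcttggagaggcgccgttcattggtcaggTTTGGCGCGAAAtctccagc
PCNA, chr20:5107299-5107338, minus strand: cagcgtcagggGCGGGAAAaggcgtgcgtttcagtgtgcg
TYMS, chr18:657593-657632, plus strand: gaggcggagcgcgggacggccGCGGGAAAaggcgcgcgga
POLA1, chrX:24711885-24711924, plus strand: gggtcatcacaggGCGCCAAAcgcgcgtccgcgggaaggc

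The genes below had no E2F word in the window, and capitals mark their CCAAT boxes, of which *RRM2* has 3 in tandem in a stretch that another *RRM2* transcript includes in its first exon. *RPA1*, *TIMELESS* and *RRM2* are shown because they are 3 of the 5 lower genes of smallest p, and *RFC1* because it had the smallest p of the higher genes.
RRM2, chr2:10262736-10262815, plus strand: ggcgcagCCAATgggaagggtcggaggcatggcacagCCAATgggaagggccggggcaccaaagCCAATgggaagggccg
RPA1, chr17:1733199-1733258, plus strand: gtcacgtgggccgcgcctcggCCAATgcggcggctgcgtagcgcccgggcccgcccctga
TIMELESS, chr12:56843241-56843280, minus strand: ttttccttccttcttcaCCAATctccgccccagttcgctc
RFC1, chr4:39368143-39368182, minus strand: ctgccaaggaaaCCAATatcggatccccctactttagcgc

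**Figure D1:**
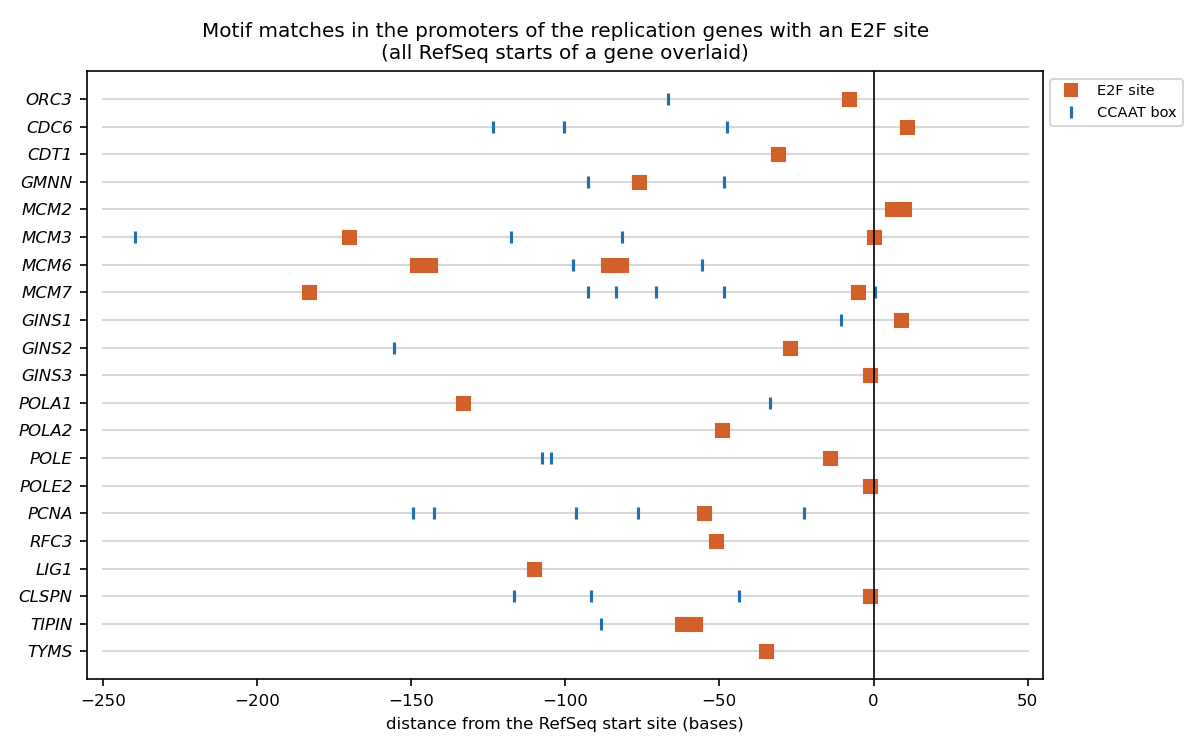
Position of E2F sites (squares) and CCAAT boxes (bars) in the promoters of the 21 replication genes with an E2F site, as the distance in bases from each RefSeq start site (vertical line; every start of a gene is overlaid). Most E2F sites lie between the start and 100 bases upstream of it or just past it, and *MCM6* has 2 separate blocks.

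The comparison of CTCF-dRBR with CTCF-WT asks whether CTCF without its RBR leaves transcription as wild-type CTCF does. The transduced line differs along with the transgene, and the design cannot separate them. In the replication genes no difference passed the test: 0 of 47 had an adjusted p under 0.05 by limma-voom on the expected counts, as did 0% of all 14044 genes tested. At an unadjusted p under 0.05, 11 of 47 (23.4%) were lower in CTCF-dRBR, beside 12.8% of all genes, and 1 (2.13%) was higher, beside 12.6%. In 15 of 47 (31.9%) all CTCF-dRBR libraries lay below all CTCF-WT libraries, beside 17.5% of all genes, and in 3 (6.38%) all lay above, beside 20.0%. The median log2 fold change of the 47 was -0.12, beside -0.0076 for all genes, with 30 negative and 17 positive values. The lower genes with an unadjusted p under 0.05 were *MCM3*, *MCM6*, *GINS4*, *POLA2*, *POLD2*, *PCNA*, *FEN1*, *RPA1*, *TIMELESS*, *RRM2* and *TYMS*, and the higher one was *RFC1*. No test of the list as a whole was run.

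The count of calls differed with the libraries used, with the removal of the GC trend and with the test. Without CTCF-dRBR replicate 1, limma-voom put 5 of 47 below the threshold, all lower in CTCF-dRBR, beside 2.37% of all genes lower and 1.52% higher. With the GC trend removed from all 6 libraries, 9 were lower and none higher, beside 5.28% and 3.94% of all genes. With both, 14 were lower and 1 was higher, beside 13.3% and 10.3%. DESeq2 on all libraries called 8 lower and none higher, beside 6.14% and 5.38%, and edgeR's quasi-likelihood test called 0. *RPA1*, *MCM6*, *RRM2*, *TIMELESS* and *POLA2* were called in the 4 of these settings that gave calls, and not by edgeR on all libraries. They are the 5 lower genes of smallest p in the fit as deposited. All settings use the same libraries, so the recurrence is no separate support.

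**Figure D2:**
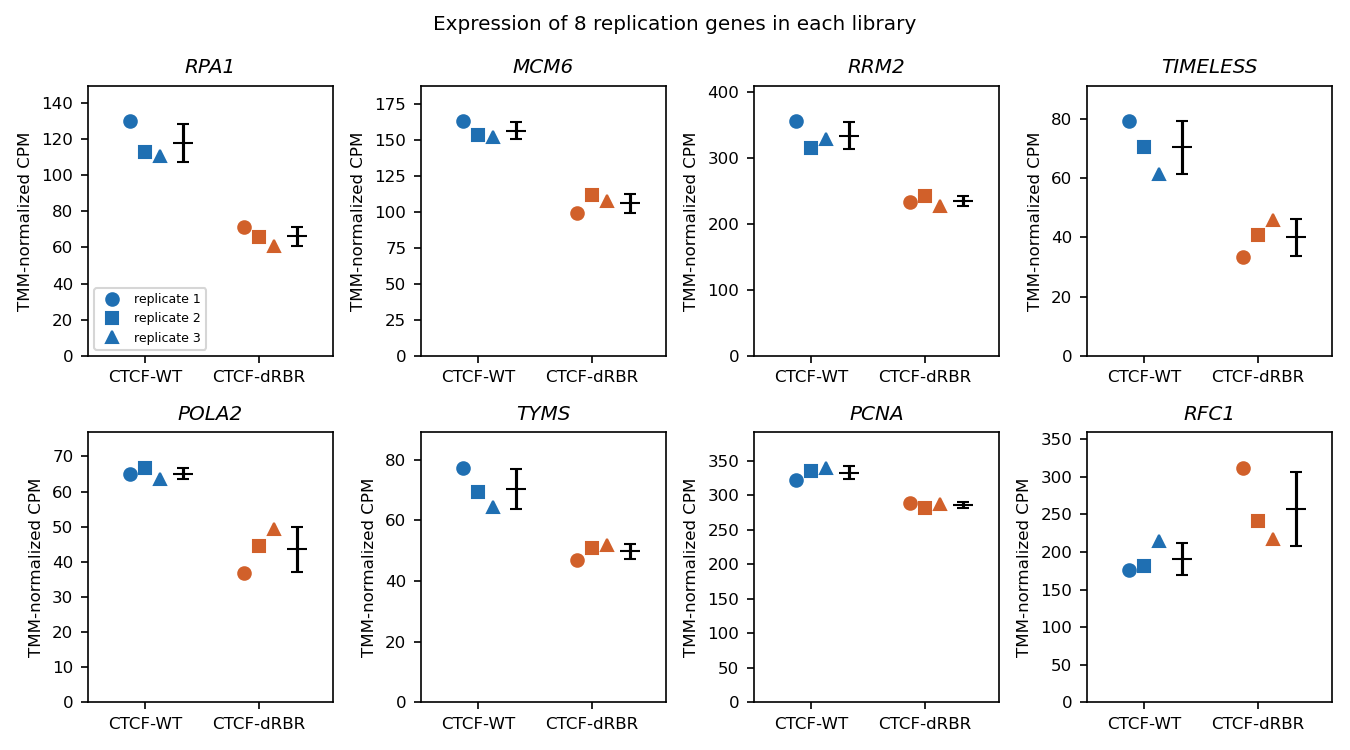
TMM-normalized CPM of 8 replication genes in each of the 3 CTCF-WT and 3 CTCF-dRBR libraries (one symbol per replicate number), with the group mean and SD in black. In 7 genes every CTCF-dRBR library lies below every CTCF-WT library, and in *RFC1* every one lies above, by a narrow margin in replicate 3.

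*RPA1* (GRCh37 chr17:1732996-1803376), the large subunit of the single-strand binding protein, had the smallest p of the 47. It was read at 129.8, 113 and 110.4 CPM in the CTCF-WT libraries and 71.5, 65.9 and 60.8 CPM in the CTCF-dRBR libraries. The lowest CTCF-WT library was well above the highest CTCF-dRBR library, and the fold change was 0.560. The log2 fold change was -0.84 (SE 0.11, adjusted p = 0.0959), and the adjusted p was 0.0289 without CTCF-dRBR replicate 1 and 0.0190 once the GC trend was removed, both by limma-voom. *RPA1* overlaps *SMYD4* on the other strand, which was at up to 35.9 CPM with a log2 fold change of -0.19, and the deposited tables are labelled as stranded, with the strand setting of the counting not given in the sources used here. Neither of the smaller subunits had an unadjusted p under 0.05. *RPA2* was at 95.9 to 117 CPM in CTCF-WT and 96.6 to 122 CPM in CTCF-dRBR, and *RPA3* at 18.8, 18.3 and 16.6 CPM in the CTCF-WT libraries and 13.6, 16.7 and 15.5 CPM in the CTCF-dRBR libraries. The groups overlapped in both, with log2 fold changes of 0.049 and -0.22 (SE 0.13, adjusted p = 0.291). Per length, in TPM, *RPA1* made up 32.4, 29.0 and 29.2% in the CTCF-WT libraries and 21.1, 17.0 and 18.9% in the CTCF-dRBR libraries of the transcripts of the 3 subunits, and the share of *RPA2* was 48.6, 49.4 and 53.8% in the CTCF-WT libraries and 61.5, 64.4 and 62.0% in the CTCF-dRBR libraries. The groups did not overlap in either share. The shares are parts of 1 sum, so a lower share of *RPA1* raises that of *RPA2*, whose own CPM overlapped.

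**Figure D3:**
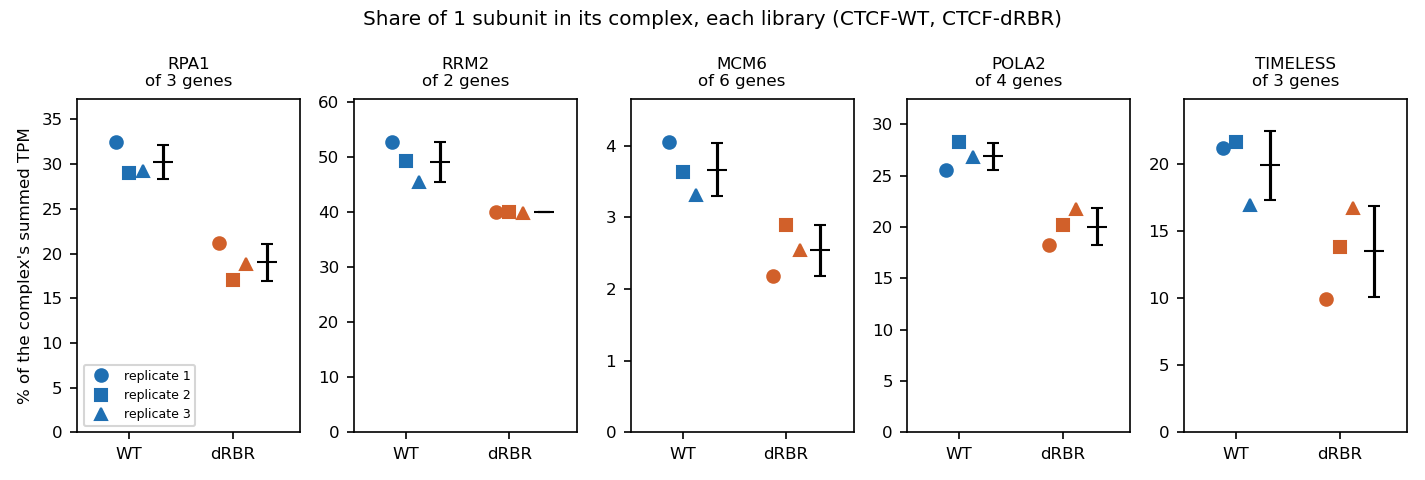
Share of 1 subunit in the summed TPM of its complex, in %, for each library (one symbol per replicate number; mean and SD in black). *RPA1*, *RRM2*, *MCM6*, *POLA2* and *TIMELESS* all have CTCF-dRBR libraries below all CTCF-WT libraries, by the narrowest margin in *TIMELESS* (16.8% against 17.0%). The genes shown are the lower ones of smallest p in the same libraries, so their lower shares are no separate support.

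Among the 6 genes of the MCM2-7 ring, the helicase core that licensing loads, all had a negative log2 fold change (median -0.49). At an unadjusted p under 0.05, 2 were lower, beside 12.8% of all genes. In 4 all CTCF-dRBR libraries lay below all CTCF-WT libraries, beside 17.5% of all genes. *MCM6* (chr2:136597196-136634013) was at 163, 154 and 152 CPM in the CTCF-WT libraries and 99.0, 112 and 108 CPM in the CTCF-dRBR libraries. Its CTCF-dRBR libraries lay close together and far below CTCF-WT, with a log2 fold change of -0.56 (SE 0.091, adjusted p = 0.0959) and adjusted p-values of 0.0282 with the GC trend removed and 0.0398 when CTCF-dRBR replicate 1 was left out. *MCM2* was at 411, 425 and 404 CPM in the CTCF-WT libraries and 185, 342 and 417 CPM in the CTCF-dRBR libraries. CTCF-dRBR replicate 1 was the lowest, replicate 2 was also below CTCF-WT, and replicate 3 lay within the CTCF-WT range. The log2 fold change was -0.47 (SE 0.29, adjusted p = 0.297). *MCM3*, *MCM5* and *MCM7* had log2 fold changes of -0.23, -0.56 and -0.51, and *MCM4*, the most abundant of the 6 in TPM, -0.14. *MCM7* overlaps *AP4M1* on the other strand, which was at 6.02 to 19.3 CPM with a log2 fold change of -0.77. Exons of *MCM2*, *MCM5* and *MCM7* hold 56.0%, 55.1% and 56.2% GC, and with the GC trend removed their log2 fold changes were -0.017, -0.18 and -0.044. Those of *MCM3* and *MCM4* were then -0.088 and -0.19, and that of *MCM6* (exons at 42.4% GC) was -0.77. The median of the 6 came to -0.13 in that fit, and *MCM6* was the only one past the threshold.

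The subunits of the ring assemble in equal numbers, but their transcripts were far from equal. On a TPM scale where the protein-coding genes of each library sum to the same total, the CTCF-WT means were 742 ± 117 TPM for *MCM4*, 452 ± 65.3 for *MCM7*, 248 ± 19 for *MCM3*, 202 ± 13.7 for *MCM2*, 168 ± 4.50 for *MCM5* and 68.5 ± 1.12 for *MCM6* (SD, n = 3). *MCM6* thus stood last, at 4.05, 3.64 and 3.32% in the CTCF-WT libraries and 2.19, 2.90 and 2.55% in the CTCF-dRBR libraries of the summed TPM of the 6. *MCM4* held 38.1, 38.5 and 41.3% in the CTCF-WT libraries and 57.8, 45.2 and 41.0% in the CTCF-dRBR libraries. On this scale *MCM4* had a log2 fold change of 0.37, against -0.14 on the counts, so its direction turned with the scale, while that of *MCM6* stayed lower.

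The 6 genes that turn the loaded ring into a helicase had a median log2 fold change of -0.092. At an unadjusted p under 0.05, 1 was lower, beside 12.8% of all genes. *CDC45*, which joins MCM2-7 at firing, was at 59.7, 58.7 and 60.4 CPM in the CTCF-WT libraries and 54.6, 47.1 and 52.8 CPM in the CTCF-dRBR libraries. The groups did not overlap, with a log2 fold change of -0.22 (SE 0.10, adjusted p = 0.210), but it was 0.069 with the GC trend removed and 0.35 on the protein-coding TPM scale. *MCM10*, needed for the opening of the origin, was at 123, 131 and 142 CPM in the CTCF-WT libraries and 158, 140.4 and 135 CPM in the CTCF-dRBR libraries. The groups overlapped and the log2 fold change was 0.13 (SE 0.11, adjusted p = 0.409). Of the 4 GINS subunits *GINS4* was lower, with log2 fold change -0.34 (SE 0.13, adjusted p = 0.187) and no overlap between groups, and *GINS1*, *GINS2* and *GINS3* had values of 0.049, -0.075 and -0.11 with groups that overlapped. The share of *GINS4* in the TPM of the 4 was 27.8, 28.2 and 26.3% in the CTCF-WT libraries and 14.3, 20.8 and 23.9% in the CTCF-dRBR libraries. In these libraries the share in CTCF-dRBR replicate 1 was far below the rest.

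The licensing genes had values in both directions. The 6 genes of the origin recognition complex had a median log2 fold change of 0.14. None had an unadjusted p under 0.05, beside 12.8% of all genes lower and 12.6% higher. *ORC6*, the smallest subunit, was at 91.2, 90.5 and 96.0 CPM in the CTCF-WT libraries and 107, 104 and 100.3 CPM in the CTCF-dRBR libraries. All 3 CTCF-dRBR libraries were above CTCF-WT by a small margin, with a log2 fold change of 0.16 (SE 0.085, adjusted p = 0.242), and -0.021 with the GC trend removed. *ORC3* was at 38.3, 41.9 and 46.9 CPM in the CTCF-WT libraries and 68.6, 53.7 and 44.4 CPM in the CTCF-dRBR libraries. CTCF-dRBR replicate 1 was the highest and replicate 3 lay within the CTCF-WT range, with a log2 fold change of 0.35 (SE 0.18, adjusted p = 0.238). *ORC1*, the ATPase that marks origins and is degraded after S phase begins, was at 66.8, 65.7 and 72.7 CPM in the CTCF-WT libraries and 61.0, 71.1 and 72.4 CPM in the CTCF-dRBR libraries. The groups overlapped and the log2 fold change was -0.00075 (SE 0.11). *ORC2* and *ORC4* were at 0.11 and 0.24. *ORC5* (37% GC) was at -0.23, and with the GC trend removed at -0.56 with an adjusted p of 0.0287 by limma-voom.

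*CDC6*, which loads the ring together with CDT1, was at 109.8, 112 and 132 CPM in the CTCF-WT libraries and 132, 113 and 116 CPM in the CTCF-dRBR libraries. The groups overlapped, with a log2 fold change of 0.033 (SE 0.12, adjusted p = 0.849) and -0.15 with the GC trend removed. *CDT1*, the loader that is destroyed in S phase, was at 48.8, 42.8 and 34.2 CPM in the CTCF-WT libraries and 11.7, 33 and 46.4 CPM in the CTCF-dRBR libraries. Its 3 CTCF-dRBR values spanned a wide range, the lowest in replicate 1, while replicate 3 lay within the CTCF-WT range. The log2 fold change was -0.57 (SE 0.45, adjusted p = 0.395). *CDT1* has a high GC content (64.3%), and with the GC trend removed its log2 fold change was 0.25 (adjusted p = 0.128), and 0.30 (adjusted p = 0.0358) when CTCF-dRBR replicate 1 was left out as well. Geminin, the inhibitor of CDT1, was at 83.3, 86.3 and 84.3 CPM in the CTCF-WT libraries and 96.9, 73.9 and 67.6 CPM in the CTCF-dRBR libraries (*GMNN*). CTCF-dRBR replicate 1 was above and replicates 2 and 3 were below all CTCF-WT libraries, with a log2 fold change of -0.12 (SE 0.14, adjusted p = 0.563). Removing the GC trend gave -0.37 with an adjusted p of 0.0338 by limma-voom. *CDT1* and its inhibitor thus had opposite signs in that fit and the same sign in the fit as deposited.

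The 4 genes of DNA polymerase alpha and primase, which start each strand, differed from one another. *POLA2* (chr11:65029384-65073430), the accessory subunit, was at 64.9, 66.8 and 63.6 CPM in the CTCF-WT libraries and 36.7, 44.6 and 49.4 CPM in the CTCF-dRBR libraries. All CTCF-dRBR libraries were below CTCF-WT, with a log2 fold change of -0.57 (SE 0.13, adjusted p = 0.114) and adjusted p-values of 0.0249 with the GC trend removed and 0.0436 when CTCF-dRBR replicate 1 was left out. *POLA1*, the catalytic subunit, was at 139, 143 and 158 CPM in the CTCF-WT libraries and 184, 154 and 143 CPM in the CTCF-dRBR libraries. The groups overlapped and its log2 fold change was 0.12 (SE 0.12, adjusted p = 0.502). *PRIM1*, the catalytic primase subunit, was at 68.5, 66.4 and 79.4 CPM in the CTCF-WT libraries and 132, 87.9 and 76.6 CPM in the CTCF-dRBR libraries, and *PRIM2*, the large one, at 33.3, 36.4 and 37.3 CPM in the CTCF-WT libraries and 51.1, 42.4 and 38.2 CPM in the CTCF-dRBR libraries. CTCF-dRBR replicate 1 was the highest in both, and the groups overlapped in *PRIM1* and not in *PRIM2*. Their log2 fold changes were 0.42 (SE 0.21, adjusted p = 0.236) and 0.27 (SE 0.14, adjusted p = 0.234), and 0.20 and -0.040 with the GC trend removed. *PRIM1* overlaps *NACA* on the same strand, which was read at 644 to 913 CPM with a log2 fold change of 0.29. Of the summed TPM of the 4 genes *POLA2* held 25.5, 28.2 and 26.8% in the CTCF-WT libraries and 18.2, 20.2 and 21.7% in the CTCF-dRBR libraries, and *PRIM1* 42.2, 38.9 and 40.6% in the CTCF-WT libraries and 50.7, 46.3 and 43.9% in the CTCF-dRBR libraries. The groups were apart in both shares, which are parts of 1 sum and not independent. On the protein-coding TPM scale itself *POLA2* overlapped, at 54.7, 65.7 and 71.0 TPM in CTCF-WT and 59.1, 56.9 and 54.3 TPM in CTCF-dRBR.

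Among the polymerases that extend the strands, the high-GC genes had the lowest values. *POLD1*, the catalytic subunit of polymerase delta (64.8% GC), had the lowest log2 fold change of the 47, -0.91 (SE 0.44, adjusted p = 0.227), with 23.0, 58.5 and 89.1 CPM in the CTCF-dRBR libraries beside 105, 106 and 83.0 CPM in CTCF-WT. The groups overlapped, and the value was -0.054 with the GC trend removed. *POLD2* (55.5% GC) was at -0.72 without overlap between groups, and at -0.34 (adjusted p = 0.0629 by limma-voom) with the GC trend removed. *POLD3* was at 0.12. Of polymerase epsilon, the leading-strand enzyme, the catalytic *POLE* was at -0.21 and *POLE2* at 29.4, 30.8 and 36.5 CPM in the CTCF-WT libraries and 48.5, 38.2 and 34.8 CPM in the CTCF-dRBR libraries. The *POLE2* groups overlapped, with a log2 fold change of 0.30 (SE 0.16, adjusted p = 0.251), and 0.029 with the GC trend removed.

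*PCNA*, the sliding clamp, was at 323, 336 and 340.2 CPM in the CTCF-WT libraries and 289.7, 282 and 288 CPM in the CTCF-dRBR libraries. The groups did not overlap and the replicates lay within a narrow range (333 ± 9.12 against 287 ± 4.35 CPM, SD, n = 3 each). The difference was small, with a fold change of 0.861 and a log2 fold change of -0.22 (SE 0.078, adjusted p = 0.174). Removing the GC trend gave -0.34 with an adjusted p of 0.0286 by limma-voom. *RFC1*, the large subunit of the clamp loader, was the only member higher at an unadjusted p under 0.05, at 176, 181 and 215 CPM in the CTCF-WT libraries and 312, 241 and 217 CPM in the CTCF-dRBR libraries. All CTCF-dRBR libraries were above CTCF-WT, with a log2 fold change of 0.41 (SE 0.16, adjusted p = 0.185). It was 0.18 (adjusted p = 0.142 by limma-voom) with the GC trend removed, and in TPM on the protein-coding scale the groups overlapped. The small RFC subunits had log2 fold changes of -0.16 (*RFC2*), 0.054 (*RFC3*), 0.25 (*RFC4*) and -0.076 (*RFC5*). *RFC3* was at -0.25 with an adjusted p of 0.0497 once the GC trend was removed. *RFC4* overlaps *EIF4A2*, an abundant gene on the other strand read at 795 to 1083 CPM.

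Of the enzymes that finish the lagging strand, *LIG1*, the ligase, was at 93.6, 90.6 and 84.2 CPM in the CTCF-WT libraries and 53.9, 68.2 and 89.9 CPM in the CTCF-dRBR libraries. CTCF-dRBR replicates 1 and 2 were below CTCF-WT and replicate 3 was within its range, with a log2 fold change of -0.35 (SE 0.19, adjusted p = 0.248). *FEN1*, the flap nuclease, had a log2 fold change of -0.46 (SE 0.18, adjusted p = 0.187) with no overlap between groups. Their values were 0.041 and -0.18 with the GC trend removed. *FEN1* overlaps *FADS2* on the same strand, whose log2 fold change was -0.40.

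*TIMELESS* (chr12:56810147-56843210), the scaffold of the fork protection complex, was at 79.1, 70.3 and 61.5 CPM in the CTCF-WT libraries and 33.3, 40.7 and 45.7 CPM in the CTCF-dRBR libraries. All CTCF-dRBR libraries were well below CTCF-WT (fold change 0.574), with a log2 fold change of -0.80 (SE 0.16, adjusted p = 0.106). The adjusted p was 0.0208 with the GC trend removed and 0.0442 when CTCF-dRBR replicate 1 was left out. Its partner *TIPIN* was at 33.3 to 34.5 CPM in CTCF-WT and 28.9 to 39.2 CPM in CTCF-dRBR, with a log2 fold change of -0.10. *CLSPN* (claspin), which carries the checkpoint signal from stalled forks, was at 127, 122 and 148 CPM in the CTCF-WT libraries and 168, 119.8 and 102 CPM in the CTCF-dRBR libraries. CTCF-dRBR replicate 1 was the highest and replicate 3 the lowest of the 6 libraries, and the log2 fold change was -0.065 (SE 0.19, adjusted p = 0.821). The TPM share of *TIMELESS* among the 3 genes was 21.2, 21.6 and 17.0% in the CTCF-WT libraries and 9.98, 13.8 and 16.8% in the CTCF-dRBR libraries.

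In 2 of the 3 nucleotide supply genes all CTCF-dRBR libraries lay below all CTCF-WT libraries, as in 17.5% of all genes. *RRM2* (chr2:10260825-10351851), the small subunit of ribonucleotide reductase, whose level follows the cell cycle, was at 356, 316 and 329.5 CPM in the CTCF-WT libraries and 234, 243 and 228 CPM in the CTCF-dRBR libraries. All CTCF-dRBR libraries lay within a narrow band below CTCF-WT (334 ± 20.5 against 235 ± 7.41 CPM, SD, n = 3 each), with a fold change of 0.704 and a log2 fold change of -0.51 (SE 0.088, adjusted p = 0.0959). The adjusted p was 0.0255 with the GC trend removed and 0.0426 when CTCF-dRBR replicate 1 was left out. *RRM1*, the large subunit, was at 259.8, 276 and 309 CPM in the CTCF-WT libraries and 396, 289 and 274 CPM in the CTCF-dRBR libraries. CTCF-dRBR replicate 1 was the highest and the other CTCF-dRBR libraries were within the CTCF-WT range, with a log2 fold change of 0.17 (SE 0.16, adjusted p = 0.476). The share of *RRM2* in the TPM of the 2 genes was 52.7, 49.2 and 45.4% in the CTCF-WT libraries and 40.1, 40.1 and 39.9% in the CTCF-dRBR libraries, and the CTCF-dRBR libraries were almost identical in it, also replicate 1. *TYMS*, thymidylate synthase, was at 77.3, 69.2 and 64.2 CPM in the CTCF-WT libraries and 47, 50.8 and 51.7 CPM in the CTCF-dRBR libraries. The groups did not overlap (fold change 0.714), with a log2 fold change of -0.49 (SE 0.11, adjusted p = 0.116), and adjusted p-values of 0.0585 without CTCF-dRBR replicate 1, 0.0665 once the GC trend was removed and 0.0209 with both, all by limma-voom. *ENOSF1*, which overlaps *TYMS* on the other strand, was read at 0 to 0.334 CPM.

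**Figure D4:**
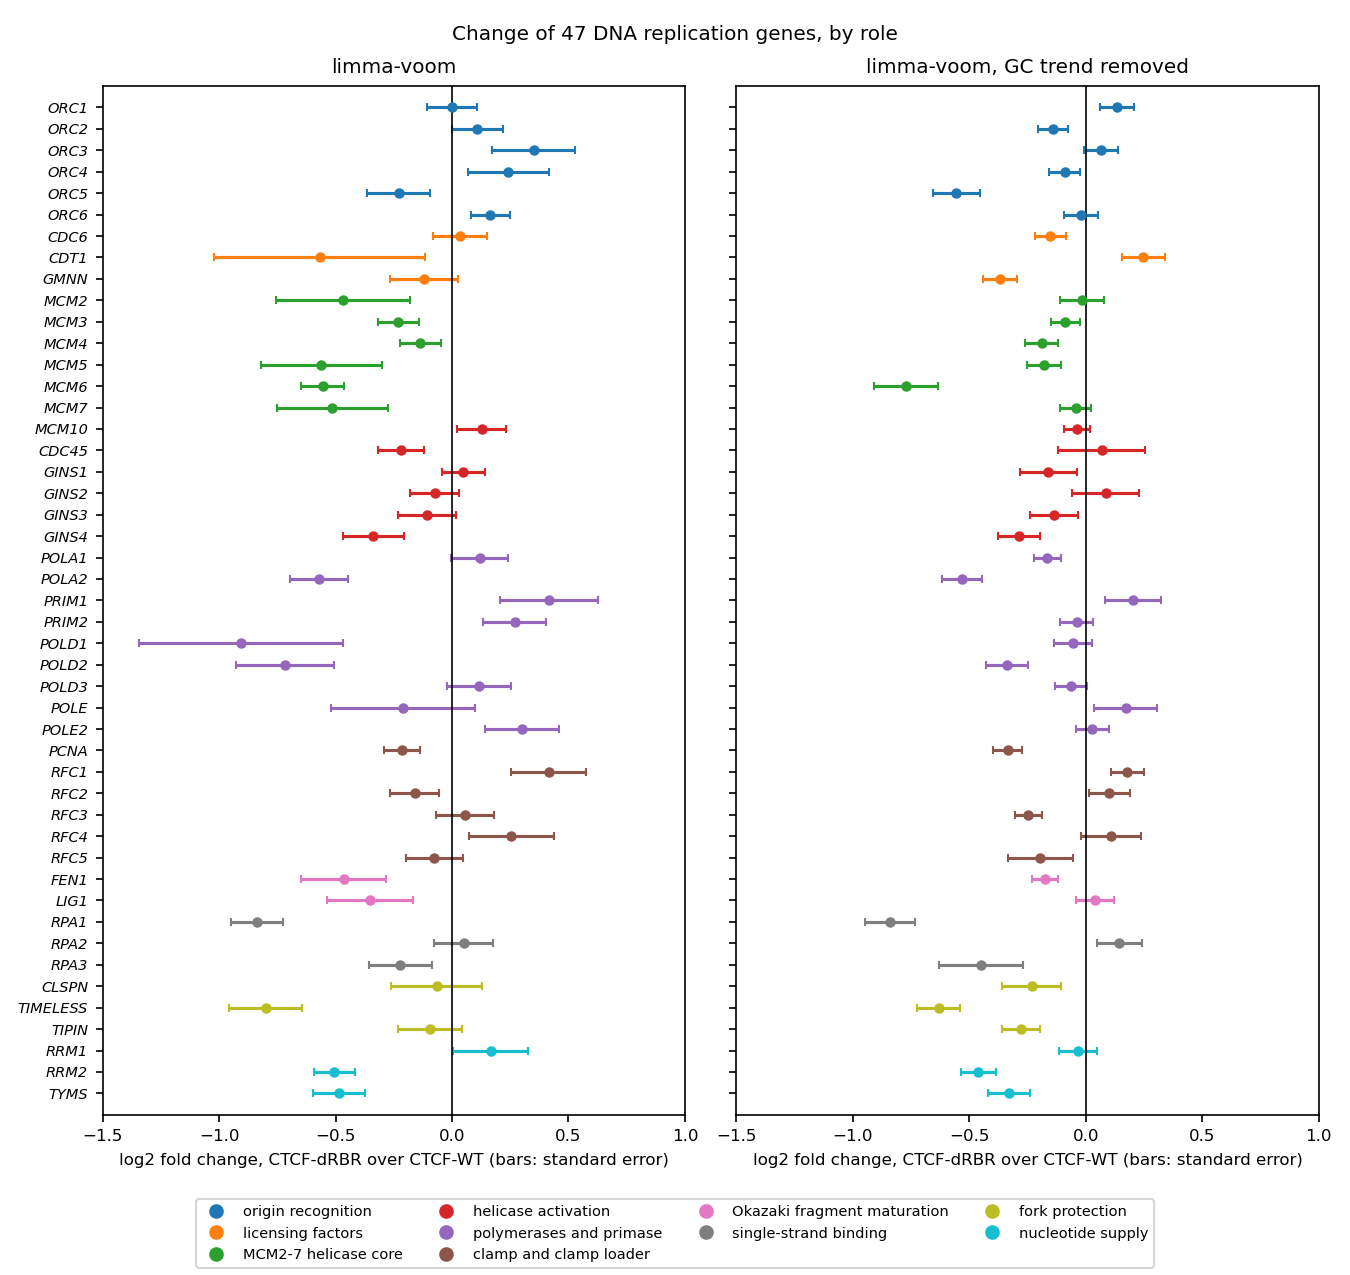
Log2 fold change of each of the 47 replication genes, CTCF-dRBR over CTCF-WT, with its standard error (bars), coloured by role, on the counts as deposited (left) and with the GC trend removed (right). *RPA1*, *MCM6*, *TIMELESS*, *POLA2* and *RRM2* lie to the left in both panels, while *POLD1*, *MCM2* and *MCM7* lie near 0 in the right panel and *CDT1* moves to the right of it.

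Across the 47 genes the fold change followed base composition as it did across all genes. Spearman's rho between log2 fold change and exon GC content was -0.69 over the 47 and -0.68 over the 13654 tested genes with a GC value, and with the GC trend removed it was 0.18 and 0.018. These are descriptions across genes measured in the same 6 libraries, and genes are not independent replicates. The 16 genes at 50% GC or more were all negative (median -0.47), and their median was -0.030 with the GC trend removed. Of the 22 genes under 45% GC, 16 were positive (median 0.12), and their median was -0.12 with the trend removed. The 9 genes between had a median of -0.22, and of -0.29 with the trend removed. The middle class holds *RPA1*, *RRM2* and *POLA2*. The CTCF-dRBR library where the 16 high-GC genes lay furthest from the mean was replicate 1, with a median deviation of -0.65 in log2 CPM, beside -0.16 in replicate 2 and 0.087 in replicate 3, and 0.13 to 0.28 in CTCF-WT. With the trend removed the medians of these 16 genes lay between -0.072 and 0.064 in all libraries.

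**Figure D5:**
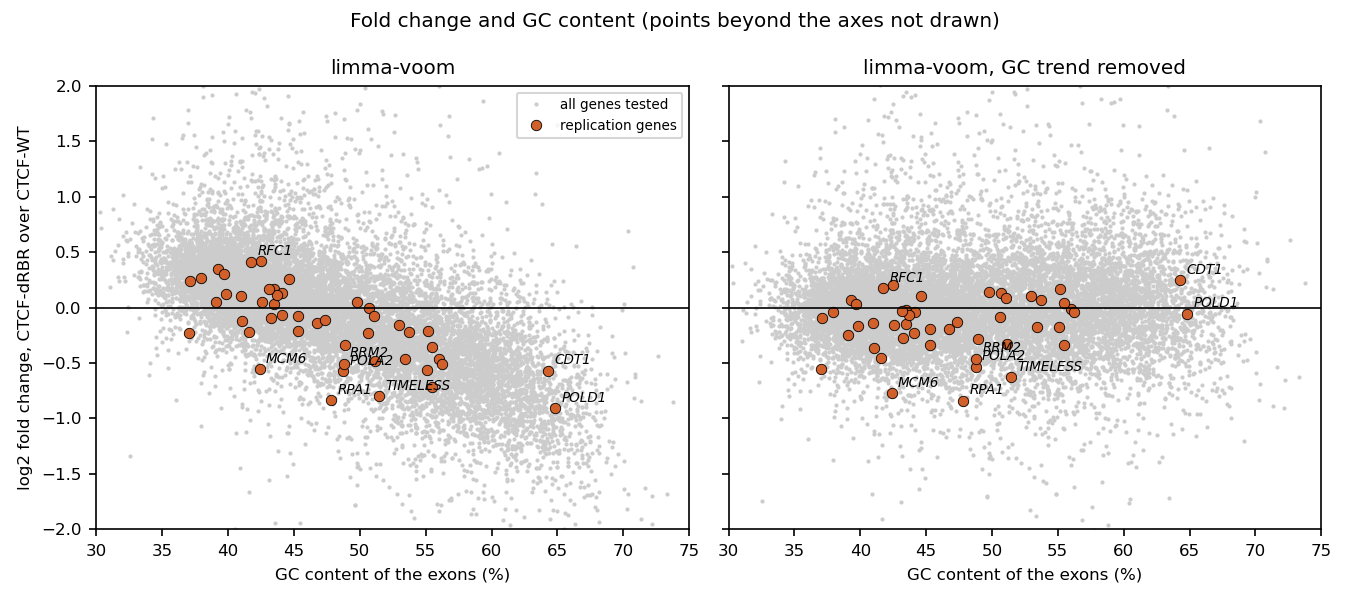
Log2 fold change (CTCF-dRBR over CTCF-WT) against the GC content of the exons in %, for all tested genes (grey) and the 47 replication genes (orange), on the counts as deposited (left) and with the GC trend removed (right). The replication genes follow the slope of all genes on the left, and *RPA1*, *MCM6* and *TIMELESS* have the lowest values of the 47 on the right.

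Levels per length gave a scale on which the members can be ranked. In CTCF-WT the highest means on the protein-coding TPM scale were *MCM4* (742 ± 117), *MCM7* (452 ± 65.3), *PCNA* (416 ± 23.8), *RRM1* (258 ± 35.7), *MCM3* (248 ± 19) and *RRM2* (247 ± 9.93 TPM), and *MCM7* and *PCNA*, like *RRM1*, *MCM3* and *RRM2*, did not differ beyond their SD. The lowest were *ORC5* (26.4 ± 1.60), *CDT1* (26.8 ± 0.452), *TIMELESS* (29.1 ± 1.93) and *PRIM2* (30.1 ± 2.87 TPM), which lay within a few TPM of each other. On this scale the groups were apart in 16 of 47 (34.0%), beside 34.6% of all genes. *MCM6*, *GINS4*, *POLD2*, *PCNA*, *FEN1*, *RPA1*, *TIMELESS*, *RRM2* and *TYMS* were the lower ones, and *ORC3*, *ORC6*, *MCM10*, *PRIM1*, *PRIM2*, *POLE2* and *RFC4* the higher ones. The scale itself was shifted, since the median log2 fold change of all genes was 0.094 above that on the counts.

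Replication genes with and without an E2F site in the promoter had values in both directions. The 21 with a site had a median log2 fold change of -0.12 (from -0.57 to 0.35), and the 20 others in the table -0.038 (from -0.91 to 0.42). The medians were -0.15 and -0.047 with the GC trend removed. Of the 5 genes lowest by p, *MCM6* and *POLA2* carried an E2F word and *RPA1*, *TIMELESS* and *RRM2* did not.

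Other genes of replication and the cell cycle were counted from lists chosen by role. Of 85 such genes 84 were tested, and 0 passed the adjusted threshold. At an unadjusted p under 0.05, 16 (19%) were lower and 12 (14.3%) higher, beside 12.8% and 12.6% of all genes. The groups were apart in 20 (23.8%) lower and 17 (20.2%) higher, beside 17.5% and 20.0%, so the shares of higher genes lay near those of all genes. The median log2 fold change was -0.063. Among 21 genes of origin firing and other fork factors (median 0.074) 5 were lower and 2 higher. The smallest p in each direction belonged to *POLE3*, a small polymerase epsilon subunit, at -0.44 (SE 0.095, adjusted p = 0.112), and *ATAD5*, which unloads PCNA, at 0.40 (SE 0.10, adjusted p = 0.129). Among 12 other nucleotide supply enzymes (median -0.16) 4 were lower and 2 higher. *CTPS1*, which makes CTP, was at 106, 96.6 and 88.4 CPM in the CTCF-WT libraries and 55.5, 60.1 and 61.0 CPM in the CTCF-dRBR libraries. The groups were far apart, with a log2 fold change of -0.71 (SE 0.11, adjusted p = 0.0959) and an adjusted p of 0.0190 with the GC trend removed. *RRM2B*, the reductase subunit induced by p53, was at 0.39 (SE 0.14, adjusted p = 0.169).

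Of 8 chromatin assembly genes 2 were lower and 1 was higher at an unadjusted p under 0.05. For this list and those below, the shares of all genes were 12.8% lower and 12.6% higher. The extremes by p were *CHAF1B*, a subunit of the chromatin assembly factor CAF-1, at -0.38 (SE 0.12, adjusted p = 0.151), and the histone chaperone *ASF1A* at 0.63 (SE 0.13, adjusted p = 0.108), which was 0.24 with the GC trend removed. Of 21 tested E2F, RB and G1/S cyclin genes 3 were lower and 2 higher. *RBL2* (p130), which represses E2F targets in resting cells, was at 121, 133 and 143 CPM in the CTCF-WT libraries and 208, 183 and 166 CPM in the CTCF-dRBR libraries. All CTCF-dRBR libraries were above CTCF-WT, with a log2 fold change of 0.49 (SE 0.12, adjusted p = 0.130) and an adjusted p of 0.0466 by limma-voom with the GC trend removed. The smallest p on the lower side was that of the CDK inhibitor *CDKN2C*, at -0.38 (SE 0.13, adjusted p = 0.164), which was 0.15 with the GC trend removed. The 22 mitosis genes had a median of 0.26, with 5 higher and 2 lower, and a median of 0.070 with the GC trend removed. The proliferation marker *MKI67* had the smallest p of the lower ones at -0.33 (SE 0.12, adjusted p = 0.176), and the mitotic kinesin *KIF20A* of the higher ones at 0.35 (SE 0.11, adjusted p = 0.150). Of the 84 genes 12 passed the adjusted threshold with the GC trend removed, 11 lower (13.1%, beside 5.28% of all genes) and 1 higher (1.19%, beside 3.94%).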

How the data were processed

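Total RNA of 3 CTCF-WT and 3 CTCF-dRBR samples of SEM cells was sequenced after ribosomal RNA removal. Per the submitters' processing notes, the authors used Trim Galore (version 0.6.3), STAR (version 2.7.9a), RSEM (version 1.3.1) and limma with the hg19 (GRCh37) build. The expected counts deposited by the authors are RSEM estimates per gene, not normalized and not always whole. The TPM deposited by the authors correct for gene length and sum to a common total over every gene of the annotation, with the small RNAs. Protein-coding genes held 30.25% to 63.24% of a library's TPM, so for levels the TPM were rescaled to a common total over protein-coding genes.

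A gene was tested if it reached 1 CPM in any library, as 14044 of 57820 did. TMM normalization used edgeR (version 4.0.16), and the groups were compared with limma-voom in R (version 4.3.3; limma version 3.58.1) without covariates, as in the study's methods. Tests were two-sided at a threshold of 0.05, after Benjamini-Hochberg adjustment over every gene tested. The adjustment of DESeq2 differed, as it was run with that tool's default filtering of genes. To remove a GC trend, each library's deviation in log2 CPM was fitted by loess (span 0.5, degree 2) on exon GC content and subtracted. GC content was taken from the exons of a lifted Gencode annotation on GRCh37 and was found for 13654 of the tested genes (97.2%). Alternatives were edgeR's quasi-likelihood test and DESeq2 (version 1.42.0) on rounded counts, quality weights, other normalizations and filters, limma-trend on log2 TPM, a replicate block, removal of a length trend, and leaving out each library. Fits were run on simulated counts with known changes. The check covered the sign of the larger changes and, except for limma-trend, their size. It set no limit on false calls. Pseudogenes of the members (12 rows) had at most 26.65 expected counts in a library. Libraries of a group differed by more than sampling noise.

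The members and lists were chosen with earlier results of these data known. Every member is named. Values by library are given for the 5 with the smallest unadjusted p in each direction and for a fixed set of main factors, and in the other lists the gene of smallest p in each direction is named. *CHTF8* and *RBL1* were left out because their symbols stand on 2 rows each.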

Additional observations from a re-analysis of the deposited data

How the results depend on the processing

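The values moved with the processing as follows. No member passed the adjusted threshold in the fit on all libraries, with edgeR, with the replicate number as a block, or without any 1 library other than CTCF-dRBR replicate 1. Shares of all genes tested, either direction, stand in brackets. There were 5 calls by limma-voom or edgeR without CTCF-dRBR replicate 1 (3.90% and 4.08%, the edgeR setting chosen after seeing the data), 8 by DESeq2 (11.5%), 9 with the GC trend removed (9.22%), 0 with the trend removed and the replicate block (0% of all genes), and 15 with the trend removed and without CTCF-dRBR replicate 1 (23.6%). With voomWithQualityWeights there were 32, or 68.1% of the members, which is the background share (68.2%), and the weights were 0.0969 for CTCF-dRBR replicate 1 and 6.19 for replicate 2. On log2(TPM + 1) and log2(TPM + 0.1), where all genes are shifted upward, there was 1 call each (5.93% and 5.41%). Leaving out 1 library at a time gave 0 to 5 calls. The cause of these differences was not tested. *RPA1*, *MCM6*, *RRM2*, *TIMELESS* and *POLA2* were lower under all 22 alternatives, on the TPM scales after the shift of all genes was subtracted. Over 1034 values of single members 118 reversed, and 20 members did not reverse under any alternative run, 16 lower and 4 higher.

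The number of members lower at an unadjusted p under 0.05 was 18 with the GC trend removed (17.5% of all genes). Leaving out CTCF-dRBR replicate 1 as well also gave 18 (21.6%). It was 7 with library size alone (9.41%) and 0 on log2(TPM + 1) and log2(TPM + 0.1) (2.02% and 2.16%). It was 5 on the protein-coding TPM scale (6.71%) and 24 with quality weights (37.4%). Without CTCF-dRBR replicate 1 it was 16, or 34.0% of the members (16.6% of all genes). Without CTCF-dRBR replicate 3 it was 31.9% of the members (23.4%). With any other library left out it was 7, or 14.9% (5.56% to 12.2%). The number higher was 2 with the GC trend removed, with or without CTCF-dRBR replicate 1 (13.8% and 18%). It was 0 with the trend removed and the block (9.51%), with a length trend removed (11.7%) or by edgeR without CTCF-dRBR replicate 1 (13.3%). It was 9 on log2(TPM + 1) (26.8%), 8 on log2(TPM + 0.1) (26.4%), 4 on the protein-coding scale (18.1%) and 11 with quality weights (34.0%). When 1 library was left out, it was 0 without CTCF-dRBR replicate 1 (13.8%) and 4 without CTCF-dRBR replicate 3 (17.6%). With any other library left out it was 0 to 1 (4.41% to 10.5%). The median log2 fold change of the 47 was -0.0021 with a length trend removed and -0.043 with library size alone. It was 0.093 on the protein-coding scale and -0.21 without a filter. In these settings the median of all genes itself moved by 0.062, 0.075, 0.094 and -0.081, in that order. On log2(TPM + 1) and log2(TPM + 0.1) the median of the 47 was 0.14 and 0.013 after the shift of all genes was subtracted. Of the other replication and cell cycle genes 12 passed the adjusted threshold with the GC trend removed, 24 when CTCF-dRBR replicate 1 was left out as well, 0 with the trend removed and the replicate block, and 0 to 3 when 1 library was left out. Between same-numbered libraries, deviations from the group means correlated at -0.34, 0.099 and -0.47 for numbers 1, 2 and 3. Such deviations sum to 0 within a group and carry the GC trend, so they cannot decide whether the numbers pair the libraries. With the number as a block there were 0 adjusted calls, and 7 lower (5.55% of all genes) and 0 higher (4.59%) at an unadjusted p under 0.05. The lowest expected count of a member in a library was 349, where counting alone gives an error (Poisson SD) of 5.35%.

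Single members whose log2 fold change changed sign are given here. With the GC trend removed the reversed values were 0.13 for *ORC1*, -0.14 for *ORC2*, -0.091 for *ORC4*, -0.021 for *ORC6*, -0.15 for *CDC6*, 0.25 for *CDT1*, -0.038 for *MCM10*, 0.069 for *CDC45*, -0.16 for *GINS1*, 0.085 for *GINS2*, -0.17 for *POLA1*, -0.040 for *PRIM2*, -0.063 for *POLD3*, 0.17 for *POLE*, 0.10 for *RFC2*, -0.25 for *RFC3*, 0.041 for *LIG1* and -0.034 for *RRM1*. With the GC trend removed and the block the reversed values were 0.13 for *ORC1*, -0.14 for *ORC2*, -0.089 for *ORC4*, -0.022 for *ORC6*, -0.15 for *CDC6*, 0.25 for *CDT1*, -0.039 for *MCM10*, 0.082 for *CDC45*, -0.16 for *GINS1*, 0.090 for *GINS2*, -0.17 for *POLA1*, -0.043 for *PRIM2*, -0.062 for *POLD3*, 0.18 for *POLE*, 0.10 for *RFC2*, -0.25 for *RFC3*, 0.041 for *LIG1* and -0.033 for *RRM1*. With the GC trend removed and without CTCF-dRBR replicate 1 the reversed values were 0.14 for *ORC1*, -0.094 for *ORC2*, -0.10 for *ORC4*, -0.13 for *CDC6*, 0.30 for *CDT1*, 0.060 for *MCM2*, -0.027 for *MCM10*, -0.026 for *GINS1*, -0.13 for *POLA1*, -0.00041 for *PRIM2*, -0.10 for *POLD3*, 0.28 for *POLE*, 0.034 for *RFC2*, -0.21 for *RFC3*, -0.025 for *RFC4* and -0.10 for *RRM1*. With a gene length trend removed the reversed values were 0.16 for *ORC1*, 0.083 for *GMNN*, 0.083 for *GINS2*, 0.063 for *RFC2*, 0.081 for *RFC5* and 0.076 for *TIPIN*. On log2(TPM + 1), after the shift of 0.41 in the median of all genes was subtracted, the reversed values were 0.10 for *ORC1*, 0.23 for *GMNN*, 0.14 for *MCM3*, 0.42 for *MCM4*, 0.38 for *CDC45*, 0.35 for *GINS2*, 0.0056 for *POLE*, 0.21 for *RFC2*, 0.032 for *RFC5*, 0.14 for *LIG1*, 0.0054 for *CLSPN* and 0.038 for *TIPIN*. On log2(TPM + 0.1), after a shift of 0.55, the reversed values were 0.10 for *GMNN*, 0.013 for *MCM3*, 0.29 for *MCM4*, 0.27 for *CDC45*, 0.24 for *GINS2*, 0.083 for *RFC2* and 0.022 for *LIG1*. On log2(TPM + 1) of the protein-coding scale the reversed values were 0.077 for *ORC1*, 0.18 for *GMNN*, 0.093 for *MCM3*, 0.37 for *MCM4*, 0.35 for *CDC45*, 0.32 for *GINS2*, 0.16 for *RFC2*, 0.10 for *LIG1* and 0.0039 for *TIPIN*. With library size alone the reversed values were 0.073 for *ORC1*, 0.00092 for *GINS2* and 0.011 for *CLSPN*. Without a filter on low counts the reversed values were -0.053 for *CDC6*, -0.030 for *GINS1*, -0.035 for *RFC3* and -0.026 for *RPA2*. With voomWithQualityWeights the reversed values were 0.10 for *ORC1*, 0.10 for *POLE* and 0.013 for *RFC5*. With RLE size factors the reversed value was 0.0029 for *ORC1*. By edgeR without CTCF-dRBR replicate 1 the reversed values were 0.064 for *ORC1*, -0.040 for *CDC6*, -0.012 for *POLD3*, 0.11 for *POLE*, -0.057 for *RFC3*, 0.035 for *RFC5* and -0.0032 for *RRM1*. Leaving out 1 library at a time, the values that reversed in some setting ranged from -0.046 to 0.066 for *ORC1*, -0.035 to 0.12 for *CDC6*, -0.15 to 0.0072 for *GINS2*, -0.0087 to 0.19 for *POLD3*, -0.45 to 0.12 for *POLE*, -0.058 to 0.15 for *RFC3*, -0.15 to 0.035 for *RFC5*, -0.027 to 0.13 for *RPA2* and -0.26 to 0.10 for *CLSPN*.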

Other observations

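Outside the 47, some genes for pyrimidine and nucleotide supply were called with the GC trend removed, and they are given here after their values were seen. Of the 12 other nucleotide supply enzymes 5 were called in that fit, all lower, beside 5.28% of all genes. *DTYMK*, *DUT*, *TK1* and *SHMT1* were not called there (0.13, -0.23, -0.28 and -0.32). *CAD*, the enzyme that begins pyrimidine synthesis, was at 107, 98.7 and 81.7 CPM in the CTCF-WT libraries and 23.5, 50.9 and 66.2 CPM in the CTCF-dRBR libraries. All CTCF-dRBR libraries lay below CTCF-WT, with a log2 fold change of -1.08 (SE 0.34, adjusted p = 0.156) on the counts and -0.60 (adjusted p = 0.0323, limma-voom) with the GC trend removed. *DCTPP1*, which clears dCTP, had a log2 fold change of -0.97 (SE 0.21, adjusted p = 0.112) and -0.50 (adjusted p = 0.0421, limma-voom) with the trend removed. The polymerase epsilon subunits *POLE3* and *POLE4* stood at -0.45 and -0.61 in that fit (adjusted p = 0.0272 and 0.0477, limma-voom), beside 0.17 for the catalytic *POLE* and 0.029 for *POLE2*.

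*TOP1*, the topoisomerase that relaxes DNA ahead of the fork, split the CTCF-dRBR libraries. It was at 88.7, 98.6 and 93.5 CPM in the CTCF-WT libraries and 93.4, 45.7 and 42.7 CPM in the CTCF-dRBR libraries, so replicate 1 lay within the CTCF-WT range and replicates 2 and 3 far below it. Its log2 fold change was -0.77 (SE 0.28, adjusted p = 0.176), with an adjusted p of 0.0209 by limma-voom without CTCF-dRBR replicate 1. That fit leaves out the CTCF-dRBR library that lay within the CTCF-WT range, so its adjusted p is no separate support. The reason for the split was not tested.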
